A study of Mus musculus with 6 samples.

Results

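The Gria1 locus was examined for 5-hydroxymethylcytosine (5hmC) in 4 libraries, from mice with a knockout of Tet1 (KO) and from wild-type (WT) mice. Gria1 lies on the plus strand of chromosome 11, from about 56824900 to about 57143750 in the mouse build mm9. Its regions were taken as the rows of the deposited count table whose midpoint lay between 56780000 and 57170000 on that chromosome. This gave 34 regions of 192196 in all, of which 5 lay upstream of the gene start, 29 lay in the gene body and 0 lay downstream of the gene end. The KO group held 2 libraries of mice with a constitutive Tet1 deletion, which is not limited to any cell type, and the WT group held 2 libraries of mice with intact Tet1. No treatment other than the genotype is named, and strain, age and the number of animals behind a library are not given in the labels. The labels call the material brain, whereas the methods of the study describe astrocytes cultured from newborn pups. The count table holds DNA counts only, so markers of astrocytes or of other brain cells could not be checked. The labels do not say that samples 1 and 2 of a genotype came from separate animals or cultures, so p-values measure only the spread between these libraries. In bulk DNA, fewer cells with the mark and less mark per cell cannot be told apart.

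Gria1 encodes GluA1, a subunit of the AMPA receptor, the glutamate-gated ion channel that carries most fast excitatory transmission in the brain. The receptor is best known from neurons, and astrocytes also carry glutamate receptors. 5hmC is formed when Tet enzymes oxidise 5-methylcytosine. It is a step in the removal of DNA methylation and also a lasting mark, and in neural cells it is often found in the bodies of expressed genes. To profile the mark, a modified glucose was attached to 5hmC and coupled to biotin, and the DNA fragments that carried biotin were enriched and sequenced.

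The 4 libraries had total counts between 16819455 and 19288900. KO sample 2 and WT sample 2 had 36.5% and 34.1% of their counts in the 25 most abundant regions, and KO sample 1 and WT sample 1 had 11.5% and 17.8%. Over all tested regions, the KO libraries had a biological coefficient of variation of 0.438, and the WT libraries had one of 0.219. Regions of chromosome Y held 1765 and 46 counts in KO samples 1 and 2 and 5353 and 4420 counts in WT samples 1 and 2. The KO libraries thus differed widely in chromosome Y counts, and both had fewer than either WT library. The labels give no sex, and whether these counts reflect the sex of the animals was not tested. The part of sex in the differences at Gria1 was not tested either. Read counts were put on a common scale as CPM, that is, per 1e6 counts of a library whose total was adjusted by TMM, a scaling that sets aside the regions with the most extreme ratios. Scaled counts give the level of a region relative to the other regions of its library, so a change shared by all regions is not seen.

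Next, the distribution of the mark along the locus was examined. The 34 regions covered 17.6 kb, or 4.52% of the 390 kb of the locus, with similar shares of 5.49% upstream and 4.75% in the body. Region widths ran from 180 to 1216 bp. Mean levels over the 4 libraries ran from 0.0379 to 19.6 CPM per region, and the wider regions held the higher levels (Spearman's rho = 0.933 and Pearson's r = 0.870 across the 34 regions, which share their libraries and are not independent). Per kb of region, the levels ran from 0.102 to 18.5 CPM with a median of 5.71. The 5 highest regions together held 47.4% of the signal of the locus. The upstream regions held between 9.79% and 11.9% of the counts of the locus in each library.

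**Figure D1:**
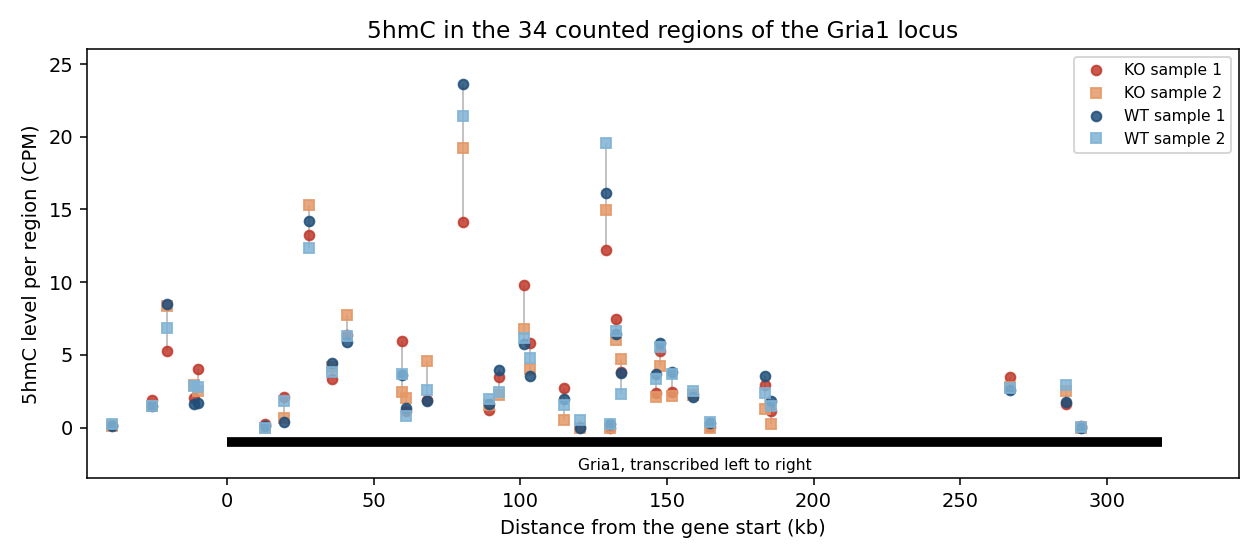
5hmC level (CPM, vertical axis) of each of the 34 regions against its distance from the Gria1 start (kb, horizontal axis) in the 4 libraries, with a grey line over the range of the 4 libraries and a black bar over the gene. The counted signal lies mostly before 185.4 kb, the 2 highest regions lie 80.3 and 129.1 kb into the gene, and no region is listed after the gene end.

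Upstream of the gene, the highest region was chr11:56804068-56804930, centred at -20.4 kb from the gene start. Its level was 5.24 and 8.36 CPM in KO samples 1 and 2 and 8.52 and 6.84 CPM in WT samples 1 and 2, and values are given in this order from here on. The KO and WT ranges overlapped. By the quasi-likelihood test of edgeR, with p-values adjusted over all tested regions of the genome, the log2 fold change of KO over WT was -0.18 ± 0.35 (SE; edgeR, adjusted p = 1.00). The region nearest to the gene start on its upstream side was chr11:56814678-56815248, centred at -9.94 kb. Its level was 4.02 and 2.53 CPM in the KO libraries and 1.70 and 2.78 CPM in the WT libraries. KO sample 1 was the highest of the 4, KO sample 2 lay between the WT libraries, and the log2 fold change was 0.55 ± 0.50 (SE; edgeR, adjusted p = 1.00).

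No region was listed around the gene start itself. The table held a gap of 22.4 kb there, which began 9.65 kb before the start and ended 12.8 kb after it. Of all gaps between neighbouring regions on the autosomes, 12.6% were at least as long. The 3 PCR intervals designed by the study for Gria1 all fall inside this gap when their coordinates are read as mm9, a build the sources used here do not state for them. In KO astrocytes, the paper reports a significant decrease of the mark on this gene, by sequencing and by PCR at these intervals. On the mm9 reading, the count table gives no value at the PCR intervals in any library, so the decrease reported there was not tested. A region that is not listed was not counted, and its level is unknown and not 0. Just after the gap, the region chr11:56837687-56837868 had 5 and 0 counts in the KO libraries and 2 and 0 counts in the WT libraries. It was too low for the test.

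The body of the gene held the 2 highest regions of the locus. The region chr11:56904591-56905769, 80.3 kb into the gene and 1179 bp wide, had 303 and 296 counts in the KO libraries and 444 and 369 counts in the WT libraries. On the CPM scale these were 14.2 and 19.2 in KO and 23.7 and 21.4 in WT. Both KO libraries lay below both WT libraries, with a log2 fold change of -0.44 ± 0.28 (SE; edgeR, unadjusted p = 0.143, adjusted p = 1.00). The region chr11:56953556-56954405, 129.1 kb into the gene, had the highest level per kb of region. Its level was 12.2 and 14.98 CPM in the KO libraries and 16.1 and 19.5 CPM in the WT libraries. The groups again did not overlap, and the log2 fold change was -0.39 ± 0.29 (SE; edgeR, adjusted p = 1.00). The sizes of both differences varied with the libraries used, from -0.67 without KO sample 2 to -0.23 without KO sample 1 in the former region, and from -0.55 without KO sample 2 to -0.25 without KO sample 1 in the latter.

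In some other regions of the body, the groups overlapped or the KO libraries were the higher ones. The region chr11:56852145-56853360, the widest of the locus with 1216 bp, had 13.2 and 15.3 CPM in KO and 14.2 and 12.4 CPM in WT. These ranges overlapped, and the log2 fold change was 0.10 ± 0.29 (SE; edgeR, adjusted p = 1.00). The region chr11:56925858-56926574, 101.3 kb into the gene, had 9.77 and 6.81 CPM in KO and 5.75 and 6.15 CPM in WT. Both KO libraries lay above both WT libraries there, most of all KO sample 1, with a log2 fold change of 0.48 ± 0.34 (SE; edgeR, adjusted p = 1.00), which was 0.20 without KO sample 1 and 0.72 without KO sample 2. At chr11:56958777-56959411 the KO libraries had 3.83 and 4.73 CPM and the WT libraries had 3.78 and 2.32 CPM. The KO libraries were again the 2 higher ones, but KO sample 1 and WT sample 1 were nearly equal, and the log2 fold change was 0.48 ± 0.44 (SE; edgeR, adjusted p = 1.00).

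The lowest unadjusted p of the locus belonged to chr11:56976443-56976948, 151.8 kb into the gene. Its level was 2.43 and 2.14 CPM in KO and 3.84 and 3.71 CPM in WT. The groups did not overlap, with a log2 fold change of -0.72 ± 0.45 (SE; edgeR, unadjusted p = 0.133, adjusted p = 1.00). The most negative log2 fold change of the locus was -1.20 ± 0.82 (SE; edgeR, unadjusted p = 0.164, adjusted p = 1.00), at chr11:57010196-57010468. This region had 24 and 4 counts in the KO libraries and 34 and 25 counts in the WT libraries. On the CPM scale these were 1.12 and 0.259 in KO and 1.81 and 1.45 in WT, so that both KO libraries were lower and KO sample 2 was the lowest by far. Without KO sample 2 the log2 fold change was -0.54, and without KO sample 1 it was -2.62 with an adjusted p of 0.0716.

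Over the whole locus, 28 regions passed the low-count filter, 4 upstream and 24 in the body, and the other 6 had at most 9 counts in any library. None of the 28 passed at adjusted p under 0.05 in edgeR or in DESeq2, and none had an unadjusted p under 0.05 in either. Over all 176957 tested regions, edgeR called 0% at adjusted p under 0.05, and 1.54% were higher and 1.27% lower in KO at unadjusted p under 0.05. In a fit with a replicate block for the sample number, 0.0446% of all regions and none of the 28 were called. Both KO libraries lay below both WT libraries in 7 of the 28 regions, against 15.6% of all tested regions. They lay above both WT libraries in 4 of the 28, against 15.3% of all tested regions. All 11 lay in the gene body. The log2 fold change was above 0 in 15 of the 28 regions and below 0 in 13, with a median of 0.032 beside 0.022 over all tested regions. The values ran from -1.20 to 0.55, and the median SE of a region was 0.465 on the log2 scale.

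**Figure D2:**
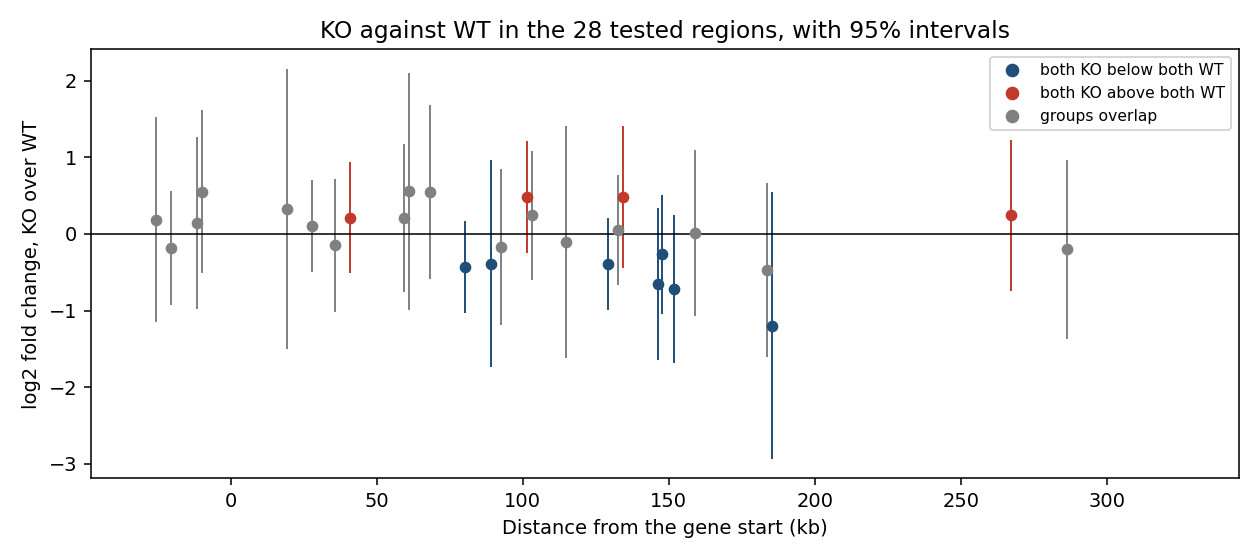
Log2 fold change of KO over WT (vertical axis) with its 95% interval for each of the 28 tested regions, against the distance from the gene start (kb, horizontal axis), coloured by whether both KO libraries lay below or above both WT libraries. Every interval includes 0, and the 7 regions with both KO libraries lower lie between 80.3 and 185.4 kb.

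The low-count regions held few reads in any library. The region chr11:56955290-56955532 had 0 counts in both KO libraries and 4 in both WT libraries. The region chr11:56989612-56989839 had 1 and 0 counts in KO and 6 and 6 counts in WT. These 2 were chosen after their values were seen. A floor of 3 counts corresponded to 0.140 to 0.194 CPM in the 4 libraries, so the KO levels of both regions were at or under the floor. Over all 15239 low-count regions of the table, both KO libraries lay below both WT libraries in 25.7%. When the low-count regions were tested as well, 1 of them, the former of these 2, had an unadjusted p of 0.0494 and an adjusted p of 1.00 in edgeR. The remaining low-count regions showed no such division, for example chr11:57115981-57116351, the last region before the gene end, with 2 and 0 counts in KO and 0 and 1 counts in WT.

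To follow the mark along the gene, the body was divided into 5 stretches of 63.8 kb, counted from the gene start. This division was compared by genotype after the data were seen. The first stretch, with 7 regions, had 32.4 and 32.3 CPM in KO and 29.9 and 28.8 CPM in WT. Both KO libraries lay above both WT libraries, and the fold of KO over WT was 1.10 (95% interval 0.815 to 1.49; edgeR, adjusted p = 1.00). The second stretch, with 8 regions, had 39.1 and 38.9 CPM in KO and 42.4 and 41.4 CPM in WT. Here both KO libraries were lower, with a fold of 0.931 (95% interval 0.706 to 1.23; edgeR, adjusted p = 1.00). The third stretch held most regions, 11, and 36.2% of the signal of the body. Its level was 40.0 and 38.0 CPM in the KO libraries and 47.7 and 48.0 CPM in the WT libraries. This was the widest separation along the gene, with a fold of 0.815 (95% interval 0.619 to 1.07; edgeR, unadjusted p = 0.125, adjusted p = 1.00). The log2 ratio was -0.25 between the samples numbered 1 and -0.34 between those numbered 2, though the numbers are not known to pair the libraries. Of its 9 tested regions, 6 had a log2 fold change below 0. In 5 of the 9, both KO libraries lay below both WT libraries, and in 1 they lay above, beside the 15.6% and 15.3% of all tested regions given above. Of 28887 windows of this length over the genome, edgeR called 0%, with 396 at unadjusted p under 0.05, and both KO libraries were lower in 13.9%. With single libraries left out, the unadjusted p of the third stretch in edgeR was 0.0282 without KO sample 1, 0.0807 without KO sample 2, 0.439 without WT sample 1 and 0.454 without WT sample 2, with adjusted p-values from 0.107 to 1.00. In each of these fits the genotype with 1 library was assumed to vary like the other.

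The distal part of the gene held few listed regions and little of the counted signal. The fourth stretch had no region, so its level is unknown. A gap of 81.1 kb ran through it, with 2.28% of autosomal gaps at least as long. The fifth stretch had 3 regions and 4.28% of the signal of the body. Its level was 5.14 and 5.32 CPM in KO and 4.32 and 5.74 CPM in WT, and its fold was 1.04 (95% interval 0.549 to 1.97; edgeR, adjusted p = 1.00). The WT libraries lay on either side of the KO libraries.

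**Figure D3:**
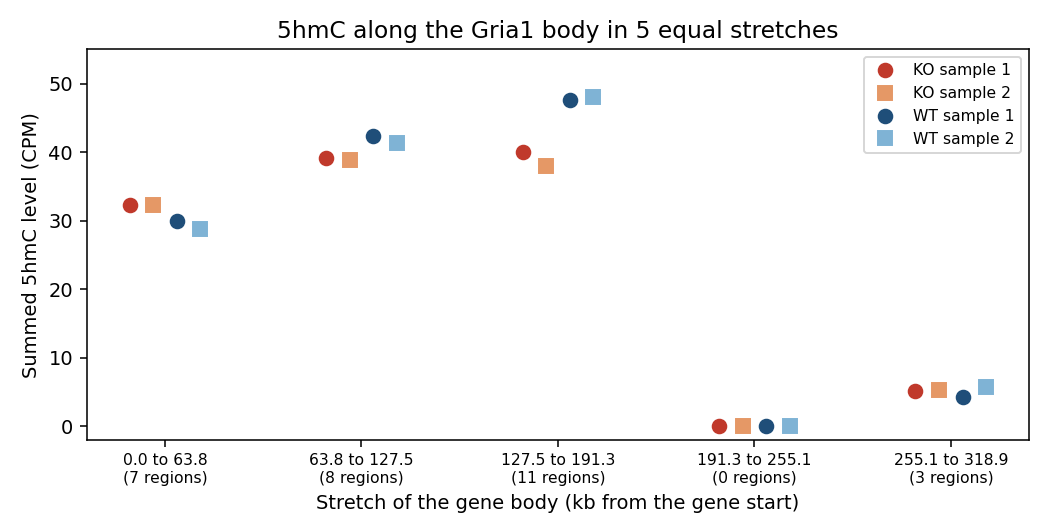
Summed 5hmC level (CPM, vertical axis) of 5 equal stretches of the Gria1 body (kb from the gene start, horizontal axis) in each of the 4 libraries. KO lies above WT in the first stretch and below it in the second and the third, where KO is at 40.0 and 38.0 CPM and WT at 47.7 and 48.0 CPM. The fourth stretch has no region, so its points at 0 stand for no counted region and not for a measured level.

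Downstream of the gene end no region was listed, so the downstream sum was 0 counts from 0 regions in all 4 libraries and was not tested. The gap over the gene end was 101.3 kb long and reached from 27.4 kb before the end to 73.9 kb after it. Of the autosomal gaps, 1.60% were at least as long. The next region, chr11:57217629-57217988, lay outside the locus and had 29 and 13 counts in KO and 14 and 29 counts in WT. In the RefSeq gene order of GRCm38, from which no coordinate was taken, the neighbours of Gria1 are the long non-coding RNA genes Gm46261 and Gm39826 before it and the pseudogene Gm12242, Fam114a2 and Mfap3 after it.

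The levels were then summed. The 5 upstream regions summed to 13.4 and 15.4 CPM in the KO libraries and 13.5 and 14.2 CPM in the WT libraries. The KO mean was 14.4 ± 1.42 CPM and the WT mean 13.8 ± 0.516 CPM (SD, n = 2). The ranges overlapped, and the fold of KO over WT was 1.04 (95% interval 0.701 to 1.55; edgeR, adjusted p = 1.00). The direction rested on KO sample 2, without which the log2 fold change was -0.045 in place of 0.058. Without its highest region, at -20.4 kb, it was 0.31. Among windows of the same length, edgeR called 0% of 37806, with 561 at unadjusted p under 0.05, and DESeq2 called 1, which was not that of Gria1.

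The 29 body regions summed to 116.6 and 114.5 CPM in the KO libraries and 124.2 and 124.0 CPM in the WT libraries. The raw body sums were 2494 and 1766 counts in KO and 2332 and 2138 counts in WT, so the order of the libraries depended on the scaling. The KO mean was 115.5 ± 1.49 CPM and the WT mean 124.1 ± 0.178 CPM (SD, n = 2). On the CPM scale both KO libraries lay below both WT libraries, as they did in 12% of 7380 windows of this length. An SD of 2 libraries is too uncertain to weigh the gap between the means. The fold was 0.931 (95% interval 0.752 to 1.15), with an unadjusted p of 0.449 and an adjusted p of 1.00 in edgeR, whose error takes in the spread of windows of like level. edgeR called 0% of these windows, with 53 at unadjusted p under 0.05, and DESeq2 called 1, which was not that of Gria1. Without its highest region, at 80.3 kb, the log2 fold change of the body was -0.039 in place of -0.10, and that of the whole locus was -0.027 in place of -0.086.

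The whole locus summed to 130.0 and 129.9 CPM in the KO libraries and 137.7 and 138.2 CPM in the WT libraries. The raw sums behind these were 2781 and 2004 counts in KO and 2585 and 2383 counts in WT, so that the order of the libraries depended on the scaling. The fold was 0.942 (95% interval 0.764 to 1.16; edgeR, unadjusted p = 0.512, adjusted p = 1.00). The log2 ratio of KO over WT was -0.083 between the samples numbered 1 and -0.089 between those numbered 2, which are not known to be pairs. The KO mean was 130.0 ± 0.0689 CPM and the WT mean 138.0 ± 0.338 CPM (SD, n = 2). An exact permutation test of 2 libraries against 2 gave p = 0.333, two-sided, which is the smallest it can give.

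**Figure D4:**
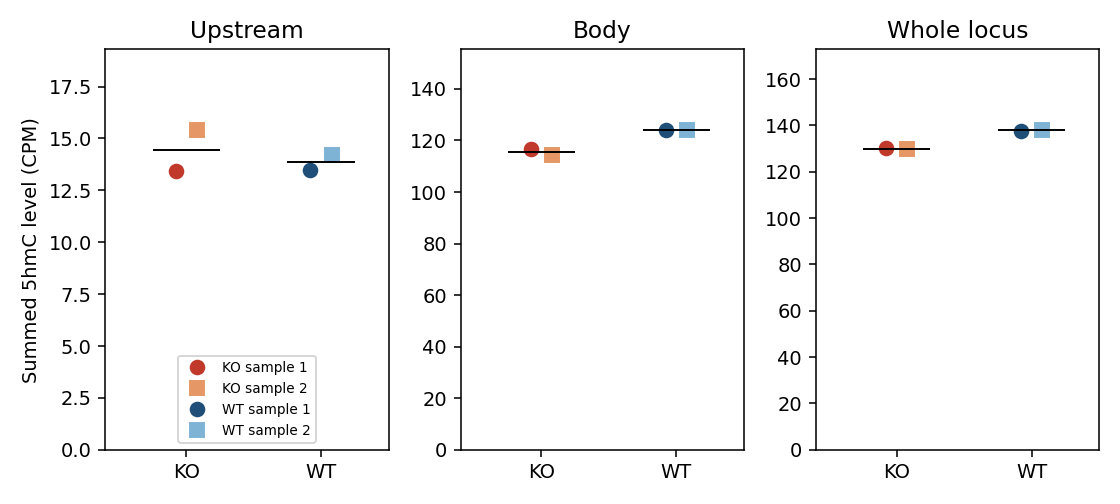
Summed 5hmC level (CPM, vertical axis from 0) of the upstream regions, the body and the whole locus in each KO and WT library, with a line at the mean of each genotype. The upstream sums overlap, and the body sums are 116.6 and 114.5 CPM in KO and 124.2 and 124.0 CPM in WT.

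Finally, the locus was compared with windows of its length over the genome. The locus had 34 regions, against a median of 25 in 6137 autosomal windows and 36 in 303 windows of chromosome 11. Its mean level of 134.0 CPM was above that of 64.8% of the autosomal windows and of 52.8% of the chromosome 11 windows. Its log2 fold change of -0.086 lay between the autosomal quartiles of -0.13 and 0.088, and 32.3% of 5886 tested autosomal windows had a lower value. On chromosome 11 the quartiles were -0.052 and 0.10, and 19.9% of 296 tested windows had a lower value. Over all chromosomes, edgeR called 0% of 6177 windows, with 48 at unadjusted p under 0.05, and DESeq2 called 0. Both KO libraries lay below both WT libraries in 11.5% of them, as they did at Gria1.

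**Figure D5:**
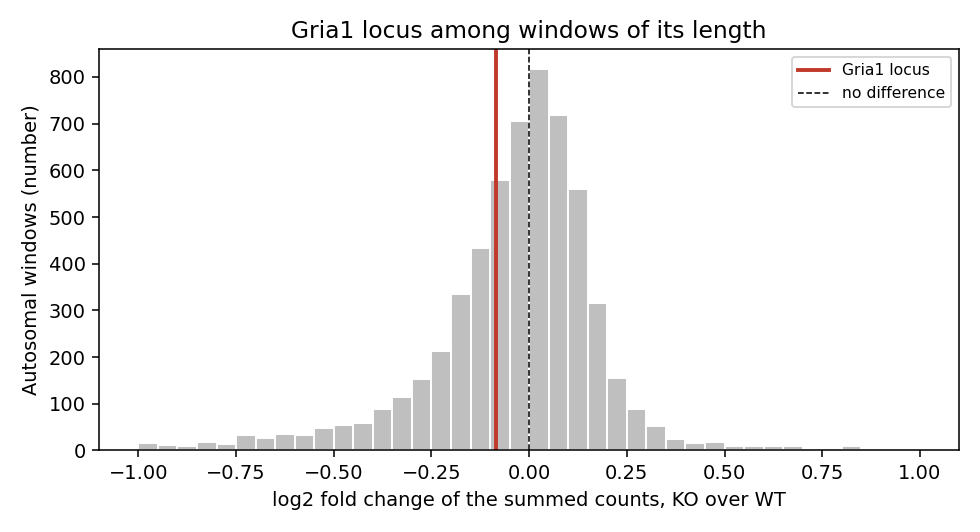
Number of autosomal windows as long as the Gria1 locus (vertical axis) by the log2 fold change of their summed counts, KO over WT (horizontal axis). The red line marks the Gria1 locus at -0.086 and the dashed line no difference, and 78 of the 5886 windows lie outside the plotted range.

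The libraries were then compared in pairs. Across the 28 tested regions, WT samples 1 and 2 had a Spearman's rho of 0.838 and KO samples 1 and 2 had one of 0.761. Across genotypes it was 0.837 for the samples numbered 1 and 0.850 for those numbered 2, about as high as within WT. Libraries of unequal number had lower values, 0.818 (KO sample 1, WT sample 2) and 0.752 (KO sample 2, WT sample 1). The last of these was also below the value of the KO pair. Over all tested regions, rho was 0.857 within WT and 0.693 within KO. The KO pair differed by more than 2-fold in 6 of the 28 regions, and the WT pair in 1. The lowest of the 4 libraries was KO sample 2 in 10 of the 28 regions and WT sample 1 in 9, against 6 for KO sample 1 and 3 for WT sample 2. Over all tested regions, the corresponding shares were 34.2%, 19.6%, 26.4% and 19.8%. The log2 ratio of KO over WT had the same sign within sample 1 and within sample 2 in 16 of the 28 regions, or 57.1%, beside 48.9% of all tested regions. The labels do not say that equal sample numbers match a KO with a WT library, so this matching is arbitrary. Of the 16, 10 were lower and 6 were higher in KO. Across the 28 regions, the ratios of sample 1 and of sample 2 had Pearson's r of -0.11 and Spearman's rho of 0.094.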

How the data were processed

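The authors deposited raw read counts for 1 list of regions shared by the 4 5hmC libraries. The submitters' processing notes name Bowtie2 2.2.6 and mm9; region calling, duplicate removal and counting are not given in the sources used here. The 2 input libraries were not analysed here. Libraries were grouped by the sample titles. Regions were filtered with filterByExpr (minimum count 10, minimum total 15), scaled with TMM (trimmed mean of M-values) and tested, KO against WT, in R 4.3.3 with edgeR 4.0.16 (quasi-likelihood), with Benjamini-Hochberg adjustment over all 176957 tested regions. Sums were tested among windows of the same length tiled over each chromosome, with the same library sizes. On chromosome 11 the windows were anchored on the locus or its part, and elsewhere they began at the chromosome start. The tests were run on simulated counts with no change or with changes larger than those of the tested Gria1 regions and sums. Their power at the sizes seen at Gria1 was not tested. Regions were named by position (nearest the gene start and end), level (5 highest mean CPM) and p (3 lowest in each direction). Members and lists were chosen with earlier results of these data known. Exons and introns were not assigned, since the annotation at hand is GRCm38. Intervals use the moderated error, and floors cover counting error only. DESeq2 1.42.0, other scalings and filters, a replicate block and leaving out each library were tried.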

Additional observations from a re-analysis of the deposited data

How the results depend on the processing

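Under every alternative run, none of the 28 tested Gria1 regions passed at adjusted p under 0.05 (lowest 0.0716), and of 42 alternative values of the 3 sums, 41 kept their direction and 0 passed (adjusted p 0.484 to 1.00). The exception was the upstream sum, whose log2 fold change ran from -0.045, without KO replicate 2, to 0.16 when single libraries were left out. Some of the 42 values could not differ in direction or pass. Moving a gene start or end by 1 kb, or placing regions by overlap, shifted no Gria1 region between parts. The exact permutation tests could not give a p under 0.333 and have no adjusted p. Single libraries also turned the region at 56804068 (-0.55 to 0.13, above 0 without KO replicate 1), the region at 56852145 (-0.0041 to 0.21, below 0 without KO replicate 2) and the fifth stretch (-0.13 to 0.28, below 0 without WT replicate 1). Calls over all regions moved most, from 0 to 6 in DESeq2, 2 without the low-count filter, 79 with the replicate block and 7 to 13438 with 1 library left out (13438 without KO replicate 1, 1943 without KO replicate 2). Without KO replicate 1, 4 of the 28 Gria1 regions (14.3%) had an unadjusted p under 0.05, beside 23.4% of all tested regions, and without KO replicate 2, 3 (10.7%) beside 11.2%. The sample numbers were not taken to pair the libraries, since the labels give only a number and there are 2 pairs (correlation of deviations 0.164 over all tested regions). With the replicate block the locus had a log2 fold change of -0.086 ± 0.16 (SE), and the block changed no call at Gria1. Alternatives for the downstream sum gave no value, because it has no region. With 2 libraries a genotype, the interval of the body's fold ran from 0.752 to 1.15 and included 1, so the observed fold could not be told from 1. The causes were not tested.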
